A study of Mus musculus with 6 samples.

Results

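The mRNA levels of 9 genes that bring glucose into cells or phosphorylate it were examined in gastrocnemius (Gas) muscle of wild-type (WT) mice and of mice without miR-92b (M92KO). The genes were the rows of the deposited count table with the symbols of 5 facilitative glucose transporters (Slc2a1, Slc2a3, Slc2a4, Slc2a8 and Slc2a12) and 4 hexokinase family members (Hk1, Hk2, Hk3 and Hkdc1), 9 of 34714 symbols. Of these, 8 had enough reads to be compared between the genotypes, among 15788 genes in all, and Hkdc1 did not. The M92KO mice carried a deletion of miR-92b in all cells (miR-92b-/-, a C57BL/6JGpt line), and the WT controls were age-matched C57BL/6 mice, so the muscle fibres and every other cell type of the tissue lacked the miRNA. The sources used here do not say whether the WT mice were littermates or of the same substrain. All mice were 8 weeks old and untreated on a standard diet, the study used male M92KO mice, and each genotype had 3 libraries from whole muscle. Differences between the genotypes therefore apply to mixed tissue, in which fewer cells of a type and less RNA per cell cannot be told apart.

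Glucose enters a muscle fibre through facilitative transporters (GLUT proteins) down its concentration gradient. GLUT4, the product of Slc2a4, is stored in vesicles and moves to the surface after insulin or contraction, and GLUT1 (Slc2a1) serves basal uptake in many cell types. Hexokinases then add a phosphate to glucose, which keeps it in the cell as glucose 6-phosphate, the common precursor of glycolysis, glycogen and the pentose phosphate pathway. Hexokinase 2 is the main form of muscle and, like hexokinase 1, can bind to the outer membrane of mitochondria.

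The sequences of the 2 mature miRNAs of the deleted locus are shown because a miRNA recognizes its targets mainly through its seed, bases 2 to 8, here in capitals. They were taken from RefSeq on the GRCm38.p6 build, on the minus strand of chromosome 3, at chr3:89227126-89227147 for the 3p arm and chr3:89227165-89227188 for the 5p arm. The mature miR-92a-3p is added as one of the mouse miRNAs with the same seed as miR-92b-3p.
miR-92b-3p: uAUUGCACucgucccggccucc
miR-92b-5p: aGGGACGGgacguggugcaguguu
miR-92a-3p: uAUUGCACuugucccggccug
The seed of miR-92b-3p was shared by 6 mature mouse miRNAs of the RefSeq table (miR-25-3p, miR-32-5p, miR-363-3p, miR-367-3p, miR-92a-3p and miR-92b-3p), and that of miR-92b-5p by 1, itself. The annotated 3′-UTRs of the longest coding transcripts of the 9 genes, between 186 bases (Hk3) and 2285 bases (Hk2) long, were searched on the transcript strand for matches of 7 or 8 bases to these seeds. None of the 9 3′-UTRs held such a match to either seed. Among 13666 tested genes with an annotated 3′-UTR, 13.8% held one for miR-92b-3p and 5.56% held one for miR-92b-5p, and the median 3′-UTR was 1188 bases long. A shorter match of 6 bases was present once in the 9 genes, in the Hk2 3′-UTR at base 419 for miR-92b-5p, and its surroundings (chr6:82726874-82726903 of GRCm38, minus strand) are shown with the matched bases in capitals.
Hk2 3′-UTR: agcagtatggaaCGTCCCctggcctacatg
The share of all tested genes with a match of only 6 bases was not counted, and Hk2 had the longest 3′-UTR of the 9 genes. A match of letters is a description and not a binding site, and other transcript forms and coding regions were not searched. The deleted miRNA itself was not analysed here.

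Slc2a4 mRNA had the highest level of the 9 genes in both genotypes, and Hk2 mRNA the second highest. Levels of different genes were compared as CPM (counts scaled to a common library size) per kilobase of the longest annotated coding transcript. In the WT mice, Slc2a4 stood at 324 ± 11.5 CPM per kilobase (SD, n = 3), rank 144 of 14751 tested genes with a known length. Hk2 stood at 84.4 ± 5.14 CPM per kilobase, rank 632 of these genes. The other members were far lower on this scale. Slc2a8, which encodes GLUT8, a transporter of internal membranes, stood at 6.52 ± 0.241 CPM per kilobase in the WT mice, and Slc2a12, which encodes GLUT12, at 6.03 ± 0.708. Their WT ranges of 6.27 to 6.75 and 5.54 to 6.84 overlapped, so these neighbours in the order were not apart beyond their spread. Hk1, the hexokinase found in most tissues, followed with 3.87 ± 0.0594 CPM per kilobase in the WT mice. Slc2a1 came next with 2.71 ± 0.152, Slc2a3, which encodes the neuronal and leukocyte transporter GLUT3, with 1.28 ± 0.423, and Hk3, a hexokinase of myeloid cells, with 0.201 ± 0.0199. The order of the means was the same in the M92KO mice, with 410 ± 15.1 CPM per kilobase for Slc2a4 and 114 ± 27.4 for Hk2. There, however, the ranges of Hk1 (3.55 to 3.88) and Slc2a1 (3.42 to 3.78) overlapped, while in the WT mice Hk1 (3.83 to 3.94) lay above Slc2a1 (2.56 to 2.86). Hkdc1, which encodes a hexokinase-like protein, had counts of 0, 2 and 0 in the WT libraries, against 2, 0 and 0 in the M92KO libraries, never reaching the detection floor of 3 counts (a limit for counting error alone). No difference in Hkdc1 was detectable at this depth.

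**Figure D1:**
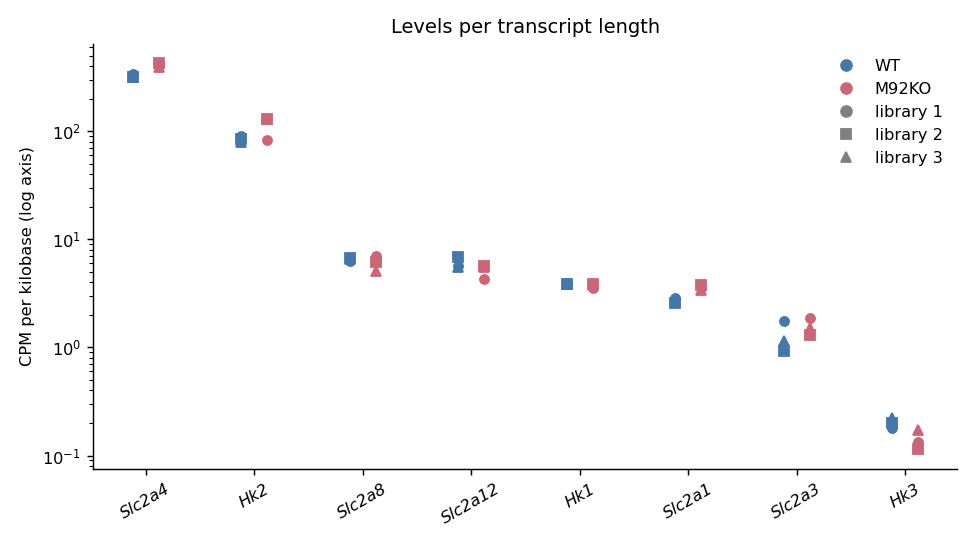
CPM per kilobase of transcript (log axis) of 8 genes in each of the 6 libraries, WT in blue and M92KO in red, with a marker shape for each library number. Slc2a4 and Hk2 lie at 79.5 CPM per kilobase or more in every library, and the other 6 genes at 7.05 or less.

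Slc2a4, Slc2a1 and Hk2 had higher mean mRNA levels in the M92KO mice, at fitted ratios of 1.27, 1.32 and 1.35 over WT, and the remaining tested members had intervals that included no difference. After Benjamini-Hochberg adjustment over the 15788 genes, edgeR's quasi-likelihood test called 0% of all genes and none of the members at a threshold of 0.05, while DESeq2's Wald test called 312 genes and the study's own steps called 42. At an unadjusted p-value under 0.05, the higher genes made up 5.47% and the lower ones 6.92% of all genes tested (1955 genes), against 3 (Slc2a4, Slc2a1 and Hk2) and 0 of the 8 members tested. The values of the 3 M92KO mice all lay above those of the 3 WT mice in 8.77% of all genes and in 2 members (Slc2a4 and Slc2a1), and all below in 9.56% of all genes and in 1 member (Hk3). Over the 8 members the median log2 fold change was 0.12, with 4 positive and 4 negative values, against -0.00 over all genes tested. With 3 mice in each genotype, the smallest two-sided p-value of the exact permutation test is 0.1. Of the markers of other cell types, the 5 fibroblast markers stood apart, since their summed level was between 1373 and 1740 CPM in the WT and between 906 and 1290 CPM in the M92KO libraries, with 0 higher and 2 lower (Col1a1 and Dcn) by the unadjusted threshold, and its part in the values of the members was not tested.

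**Figure D2:**
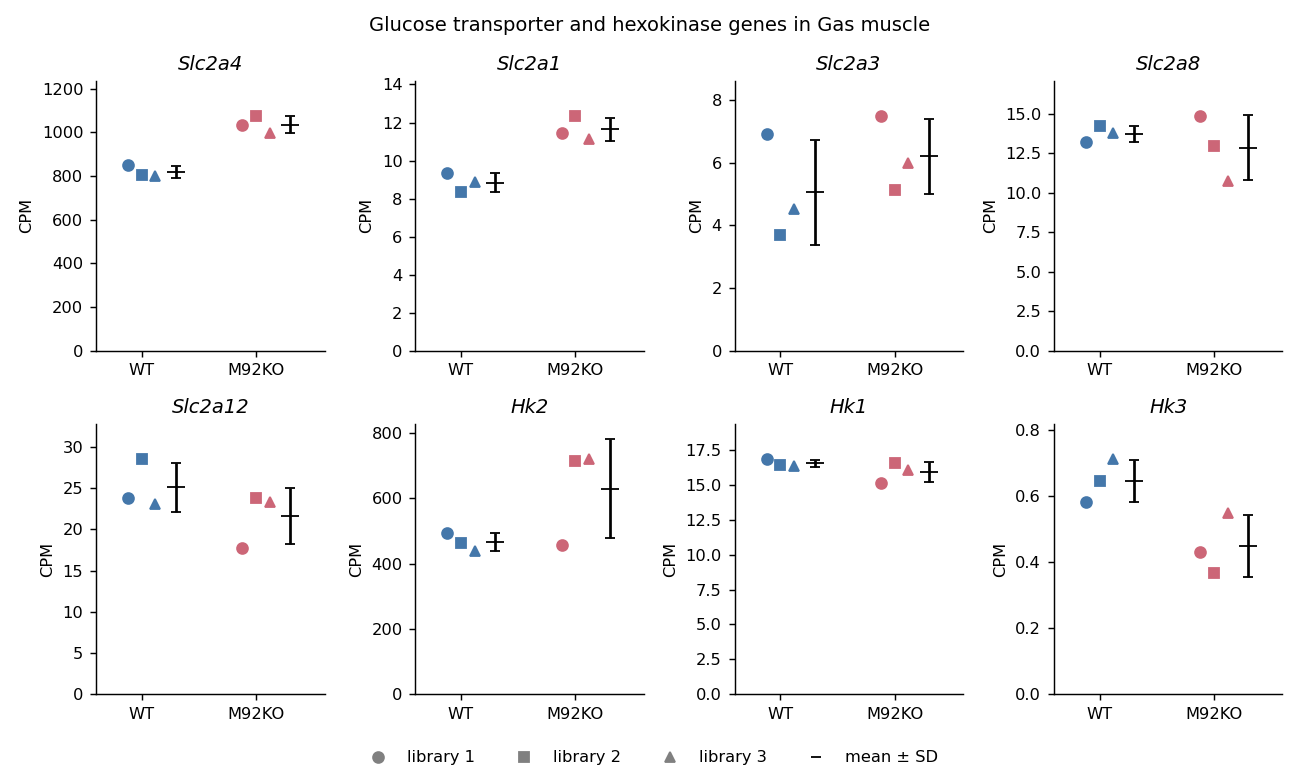
CPM (linear axes from 0) of the 8 tested genes in each WT (blue) and M92KO (red) library, with the mean ± SD of 3 libraries beside the points. The genotypes do not overlap for Slc2a4, Slc2a1 and Hk3, and for Hk2 the first M92KO library lies among the WT libraries.

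Slc2a4 (GRCm38 chr11:69942539-69948188, minus strand, ENSMUSG00000018566) had 852, 805 and 798 CPM in the WT libraries, against 1036, 1074 and 998 CPM in the M92KO libraries. Every M92KO value was above every WT value, and the coefficient of variation was 3.55% in the WT and 3.68% in the M92KO mice. The log2 fold change was 0.34 ± 0.072 (SE, 95% confidence interval 0.18 to 0.50, edgeR adjusted p = 0.179, exact p = 0.1). Its unadjusted p-value ranked 104 among the 15788 genes. The adjusted p-value of Slc2a4 was 0.00137 with DESeq2's Wald test, and 0.0324 with edgeR when the first M92KO library was left out. Markers of skeletal muscle fibres summed to between 115355 and 127223 CPM in the WT and between 116440 and 124657 CPM in the M92KO libraries, with 1 of 9 (Des, the intermediate filament desmin, log2 fold change 0.23) higher and 0 lower at an unadjusted p-value under 0.05. Fat cells also use Slc2a4, and 6 fat cell markers summed to between 312 and 363 CPM in the WT and between 312 and 391 CPM in the M92KO libraries. Fabp4 made up most of these sums, with 324 ± 30.8 CPM in the WT and 334 ± 34.7 CPM in the M92KO mice. Of the 6 markers, 5 were tested and 0 passed the unadjusted threshold, with a median log2 fold change of 0.62. The value was 0.04 for Fabp4 and 0.40, 0.62, 0.84 and 0.95 for Adipoq, Plin1, Cfd and Cidec, all with overlapping groups. Lep had between 0 and 6 counts in a library. The part of either marker list in the Slc2a4 difference was not tested.

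Slc2a1 (chr4:119108711-119137983, plus strand, ENSMUSG00000028645), on a much lower level, had a difference of similar size. Its values were 9.32, 8.33 and 8.86 CPM in the WT libraries, against 11.5, 12.3 and 11.1 CPM in the M92KO libraries, from 322 to 431 counts in a library. The groups did not overlap, and the log2 fold change was 0.40 ± 0.097 (95% confidence interval 0.18 to 0.62, edgeR adjusted p = 0.193, exact p = 0.1). GLUT1 is the transporter of the endothelium, and the 8 endothelial markers, of which 0 passed the unadjusted threshold, summed to between 887 and 987 CPM in the WT and between 785 and 978 CPM in the M92KO libraries, with a median log2 fold change of -0.13. Red cell markers, of which 5 of 6 were tested and 0 passed, had a median log2 fold change of 0.66. They summed to between 74.0 and 223 CPM in the WT and between 143 and 336 CPM in the M92KO libraries. Whether mouse red cells use GLUT1 was not examined here. Schwann cells and nerve use GLUT1, as the endothelium does. Of 7 markers of theirs, 0 were higher and 3 (Mbp and Pmp22 among them) were lower by the unadjusted threshold. These 7 summed to 138 to 190 CPM in the WT and 140 to 148 CPM in the M92KO libraries. The part of these cells in the Slc2a1 difference was not tested.

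The other transporters did not separate the genotypes. Slc2a3 (chr6:122727809-122801640, minus strand) had 6.92, 3.70 and 4.52 CPM in the WT and 7.48, 5.13 and 6.00 CPM in the M92KO libraries. The first WT library lay above 2 of the 3 M92KO libraries, and the log2 fold change was 0.29 ± 0.24 (95% confidence interval -0.25 to 0.84, edgeR adjusted p = 0.680). Without this WT library it was 0.59, and the unadjusted p-value was then under 0.05 (edgeR adjusted p = 0.381), whereas it was 0.12 without WT library 2 and 0.14 without M92KO library 1. Slc2a8 (chr2:32972990-32982083, minus strand) had 13.2, 14.2 and 13.8 CPM in the WT and 14.9, 12.9 and 10.8 CPM in the M92KO libraries. The M92KO values lay on both sides of the WT values, with a log2 fold change of -0.10 ± 0.12 (95% confidence interval -0.38 to 0.18, edgeR adjusted p = 0.803), and the sign depended on the third M92KO library, without which the value was 0.02. Slc2a12 (chr10:22645011-22704285, plus strand) had 23.8, 28.5 and 23.1 CPM in the WT and 17.7, 23.8 and 23.3 CPM in the M92KO libraries. The groups overlapped, and the log2 fold change was -0.22 ± 0.13 (95% confidence interval -0.52 to 0.08, edgeR adjusted p = 0.561). It was -0.09 without M92KO library 1 and -0.12 without WT library 2.

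Hk2 (chr6:82725025-82774454, minus strand, ENSMUSG00000000628) had the largest fitted difference of the members towards higher values and the largest spread among the M92KO mice of the abundant members. It had 495, 463 and 438 CPM in the WT libraries, against 456, 715 and 720 CPM in the M92KO libraries. The first M92KO library lay within the WT range, and the other M92KO libraries lay above every WT library. The log2 fold change was 0.44 ± 0.16 (95% confidence interval 0.07 to 0.81, edgeR adjusted p = 0.343, exact p = 0.3). Without the first M92KO library it was 0.62 with an edgeR adjusted p = 0.00596, and without M92KO library 2 or 3 it was 0.34 and 0.33, with an unadjusted p-value no longer under 0.05. Leaving out WT library 2 or 3 also ended the unadjusted call, at 0.43 and 0.39. Myh1, the myosin heavy chain of fast IIx fibres, stood at 9659 CPM in the first M92KO library. Its values in the other 5 were between 14339 and 17197 CPM. Some other skeletal muscle fibre markers were highest in this first M92KO library. Myh4 had 31499 CPM there, against 22934 to 28830 CPM in the other 5, and Tnnt3 had 15620 CPM, against 13142 to 14314 CPM. Tnnc2 had 7803 CPM, against 5862 to 6411 CPM, and the remaining markers of that list lay within the range of the other libraries. Slow fibre markers, of which 0 of 7 passed the unadjusted threshold, summed to between 178 and 262 CPM in the WT and between 127 and 225 CPM in the M92KO libraries. The part of fibre composition in the Hk2 values was not tested.

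The other hexokinases stood at low levels. Hk1 (chr10:62268855-62379908, minus strand) had 16.9, 16.5 and 16.4 CPM in the WT and 15.2, 16.6 and 16.1 CPM in the M92KO libraries. It had the smallest fitted difference of the members, with overlapping groups and a log2 fold change of -0.05 ± 0.080 (95% confidence interval -0.24 to 0.13, edgeR adjusted p = 0.833). Hk3 (chr13:55005985-55021385, minus strand) had 0.584, 0.647 and 0.712 CPM in the WT and 0.432, 0.366 and 0.551 CPM in the M92KO libraries. Although every M92KO value was below every WT value, these came from 27, 25 and 34 counts against 15, 12 and 20 counts. The log2 fold change of Hk3 was -0.52 ± 0.29 (95% confidence interval -1.17 to 0.14, edgeR adjusted p = 0.519, exact p = 0.1). Of 8 myeloid markers 0 were higher and 1 (Ptprc, the leukocyte antigen CD45, log2 fold change -0.53, groups not overlapping) was lower by the unadjusted threshold. Over this list the median log2 fold change was -0.08, with 3 positive and 5 negative values, from -0.53 for Ptprc to 0.42 for Cd68. The list summed to between 73.5 and 81.8 CPM in the WT and between 58.3 and 82.5 CPM in the M92KO libraries, and its part in the Hk3 values was not tested. Exons of Slc2a1, Slc2a12, Hk1 and Hk3 overlap those of a gene on the opposite strand (Gm12868, Tbpl1, Hk1os and Unc5a). Whether the counting used strand is not given in the sources used here, so reads of these pairs may not have been told apart.

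**Figure D3:**
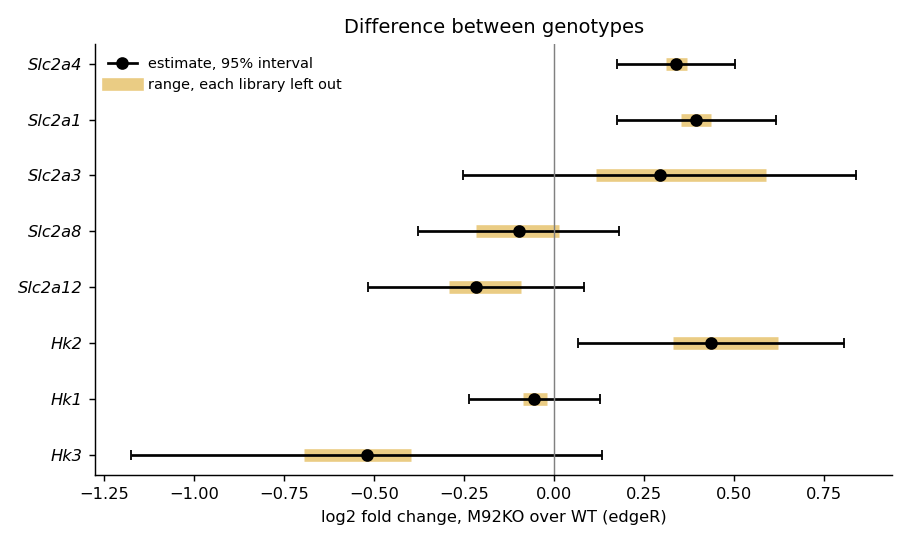
The log2 fold change of M92KO over WT for each of the 8 tested genes, with edgeR's 95% confidence interval (black) and the range of estimates when each of the 6 libraries was left out in turn (yellow bar). The intervals of Slc2a4, Slc2a1 and Hk2 lie above 0, and the yellow bar of Slc2a8 spans 0.

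The make-up of each family was then described as each gene's percentage of the family's reads in a library, a measure that does not depend on how the libraries were scaled and in which the percentages of a family sum to the whole. Slc2a4 made up 94.1%, 93.6% and 94.1% of the transporter reads in the WT libraries, against 95.3%, 95.2% and 95.1% in the M92KO libraries. The M92KO shares were all higher. The share of Slc2a12 was 2.89% ± 0.373 in the WT and 1.99% ± 0.314 in the M92KO mice (SD, n = 3), and that of Slc2a8 was 1.58% ± 0.105 and 1.18% ± 0.172. Both shares were lower in every M92KO library than in every WT library, although neither gene's CPM separated the genotypes. Because Slc2a4 made up most of the transporter reads, such shares also fall when Slc2a4 alone is higher. The share of Slc2a1 was 1.01% ± 0.0400 in the WT and 1.07% ± 0.0206 in the M92KO mice, with no overlap, and that of Slc2a3 was 0.576% ± 0.171 and 0.572% ± 0.117, with overlap. Summed over the 5 transporters, the level was 871 ± 29.8 CPM in the WT and 1088 ± 39.7 CPM in the M92KO mice, again with no overlap. There were 92.7 ± 3.47 reads of Slc2a4 for each read of Slc2a1 in the WT and 89.0 ± 1.72 in the M92KO mice, with overlapping groups, whereas for each read of Slc2a12 there were 32.9 ± 4.06 and 48.8 ± 8.43 reads of Slc2a4, with no overlap.

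Within the hexokinases, Hk2 made up 96.4% ± 0.174 of the reads in the WT and 97.4% ± 0.596 in the M92KO mice. The lowest M92KO share of Hk2 (96.7%, the first library) lay just above the highest WT share (96.6%). The share of Hk1 was 3.44% ± 0.154 in the WT and 2.56% ± 0.573 in the M92KO mice, and that of Hk3 was 0.135% ± 0.0212 and 0.0721% ± 0.0209, both lower in every M92KO library. There were 29.4, 28.1 and 26.8 reads of Hk2 for each read of Hk1 in the WT libraries, against 30.1, 43.0 and 44.8 in the M92KO libraries. Summed over the family, the level was 483 ± 28.5 CPM in the WT and 647 ± 152 CPM in the M92KO mice, and the groups overlapped through the first M92KO library. Because Slc2a4 was high in all 3 M92KO libraries and Hk2 in 2, the number of Slc2a4 reads for each Hk2 read was 2.27 in the first M92KO library, above the WT values of 1.72 to 1.82, and lower than these WT values in the others (1.39 in the third). As Hk2 made up most of the hexokinase reads, the shares of Hk1 and Hk3 also fall when Hk2 alone is higher. These percentages and ratios are descriptions without a test.

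**Figure D4:**
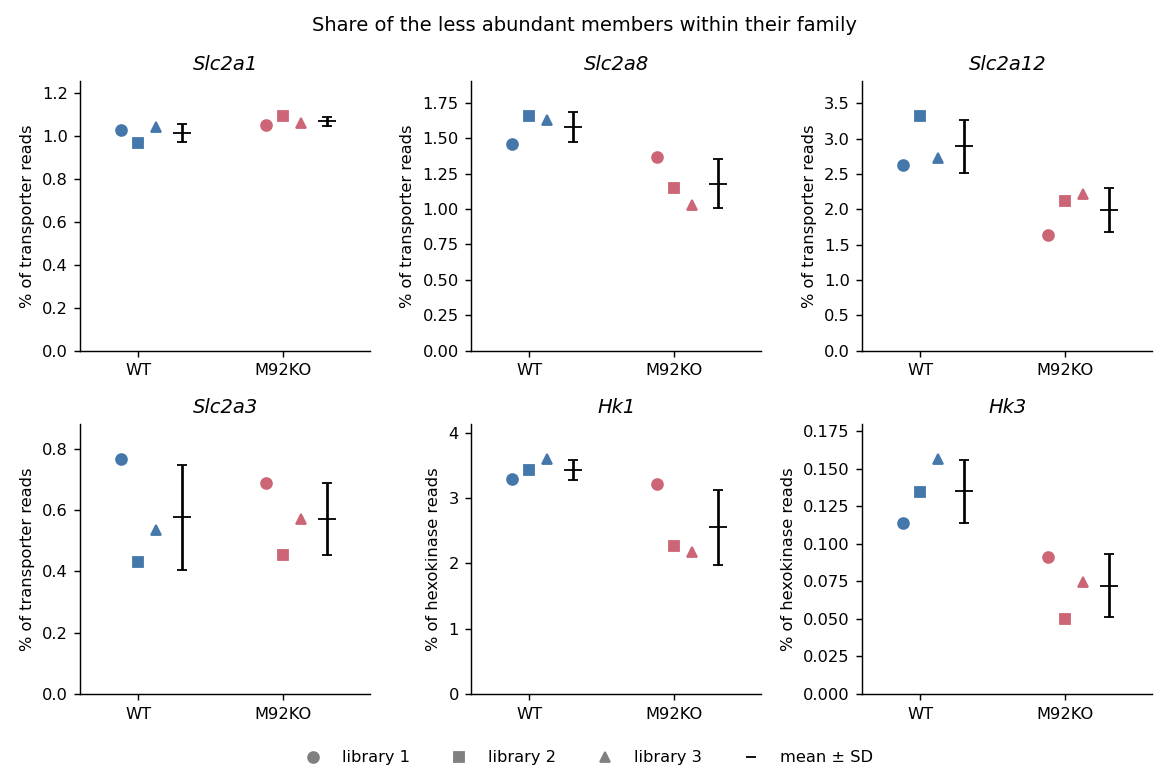
Percentage of the family's reads for the less abundant transporters and hexokinases (linear axes from 0) in each WT (blue) and M92KO (red) library, with the mean ± SD of 3 libraries. Slc2a8, Slc2a12, Hk1 and Hk3 lie lower in every M92KO library, Slc2a1 lies slightly higher, and Slc2a3 overlaps. Each percentage also depends on Slc2a4 or Hk2, which make up most of the reads of their family.

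Across the 6 libraries, the log2 CPM of Slc2a1 and Slc2a4 had a Pearson r of 0.988, and those of Slc2a4 and Hk2 one of 0.677. Among 8740 genes with a mean of at least 10 CPM, the 5 genes most like Slc2a4 were Slc16a3 (r = 0.994), Zswim7 (0.989), Pbxip1 (0.989), Zdhhc16 (0.988) and Slc2a1 (0.988). Those most like Slc2a1 were Zdhhc16 (r = 0.998), Zc3hc1 (0.993), D830024N08Rik (0.992), Rab5c (0.991) and Tceal5 (0.989). Hk2 was most like another set of genes, Myot (r = 1.00), Flnc (0.997), Sgcd (0.997), Dnaja4 (0.995) and Usp28 (0.995), whose log2 fold changes lay between 0.34 for Sgcd and 1.20 for Flnc. These correlations are descriptions over 6 points that share the genotype difference and the library scaling, and with 8740 genes and 6 points high values arise readily.

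Promoters of Slc2a1 and Hk2 are shown because both genes had higher means in the M92KO mice and are known targets of hypoxia-inducible factor 1 (HIF-1), whose core motif is ACGTG or GCGTG. The windows, from RefSeq on GRCm38.p6, run from 250 bases before to 50 bases after the start of transcription, 5′ to 3′ on the gene's strand, with the core motif on either strand in capitals.
Slc2a1 promoter (chr4:119108495-119108794, plus strand): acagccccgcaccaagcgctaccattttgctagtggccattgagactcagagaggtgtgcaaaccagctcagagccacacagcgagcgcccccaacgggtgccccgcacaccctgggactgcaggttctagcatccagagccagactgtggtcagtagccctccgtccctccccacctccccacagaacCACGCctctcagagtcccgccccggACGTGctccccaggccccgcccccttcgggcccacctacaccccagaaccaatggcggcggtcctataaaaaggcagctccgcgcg
Hk2 promoter (chr6:82774405-82774704, minus strand): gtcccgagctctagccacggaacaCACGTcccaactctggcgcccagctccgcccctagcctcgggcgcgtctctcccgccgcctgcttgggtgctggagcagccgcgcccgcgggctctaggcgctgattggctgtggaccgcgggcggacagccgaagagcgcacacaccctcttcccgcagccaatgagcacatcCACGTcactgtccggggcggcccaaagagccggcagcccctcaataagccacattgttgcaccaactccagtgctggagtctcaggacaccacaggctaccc
The Slc2a1 window held 1 match to ACGTG and 1 to GCGTG, and the Hk2 window held 2 to ACGTG. The windows of other members held matches too, with 1 each for Slc2a8, Hk3 and Hkdc1 and, for Hk1, 0 in one window and 2 to ACGTG and 3 to GCGTG in the other, while the Slc2a12 window had 0. The promoters of Slc2a4 and Slc2a3 were not analysed here. One or the other was present in 43.8% of 32851 promoter windows of this length, so a match is common. The E-box CACGTG, which factors of the MondoA family can bind, was absent from both windows and present in 7.15% of all. Hif1a, which encodes a subunit of HIF-1, had a log2 fold change of 0.01 (edgeR adjusted p = 0.976).

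Genes around glucose entry were followed in lists of known pathway members. Of 13 other hexose transporters and sugar kinases, 6 were tested, and by the unadjusted threshold 1 had a higher and 1 (Slc2a10) a lower level, with a list median of 0.16 on the log2 scale. Slc2a10, which encodes GLUT10, stood at 4.46 ± 0.358 CPM in the WT and 3.10 ± 0.350 CPM in the M92KO mice, with no overlap (log2 fold change -0.53 ± 0.15, edgeR adjusted p = 0.244). Adpgk, an ADP-dependent sugar kinase, had a log2 fold change of 0.17 ± 0.10 with overlapping groups.

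The 26 genes of GLUT4 vesicle traffic were centred near 0, with 0 higher, 2 lower and a median log2 fold change of 0.04. The lower ones were Pik3c2a, a lipid kinase of vesicle traffic (27.5 ± 1.89 CPM in the WT and 20.3 ± 2.33 in the M92KO mice, log2 fold change -0.44 ± 0.10, edgeR adjusted p = 0.186), and Tbc1d4. Tbc1d4, or AS160, is the Rab GTPase-activating protein that holds GLUT4 vesicles inside the fibre until Akt phosphorylates it, and its log2 fold change was -0.41 ± 0.14 with overlapping groups (edgeR adjusted p = 0.314).

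Among 15 regulators of Slc2a4 and Hk2 transcription, 1 was higher, 3 were lower and the median log2 fold change was 0.01. Hdac4, a class IIa histone deacetylase that represses MEF2-driven transcription, Slc2a4 included, had 65.5, 65.1 and 70.1 CPM in the WT and 49.6, 53.4 and 49.5 CPM in the M92KO libraries. Its groups lay well apart, and the log2 fold change was -0.40 ± 0.068 (edgeR adjusted p = 0.165). The nuclear receptor genes Nr4a3 (log2 fold change -1.45 ± 0.42, edgeR adjusted p = 0.247) and Nr4a1 (-0.88 ± 0.33, adjusted p = 0.352) were also lower by the unadjusted threshold, with overlapping groups and a wide spread among the WT mice (23.6 ± 10.3 CPM for Nr4a3). Hdac5, also on this list, stood at 84.7 ± 4.46 CPM in the WT and 92.5 ± 5.41 CPM in the M92KO mice. Its log2 fold change was 0.13 ± 0.073, and those of Mef2a, Mef2c and Mef2d were -0.02, 0.06 and -0.05, all with overlapping groups. Nr4a1 was named after its values were seen, to complete the count, and so were Hdac5 and the Mef2 genes, to set beside Hdac4. The part of these regulators in the Slc2a4 values was not tested. Srebf1, which encodes the insulin-responsive factor SREBP-1, was higher with no overlap (51.0 ± 3.85 CPM in the WT and 62.5 ± 6.13 in the M92KO mice, log2 fold change 0.29 ± 0.091, edgeR adjusted p = 0.270).

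The glucose-sensing factors MondoA and ChREBP, their partner Mlx and the arrestins that they induce formed a list of 5 genes, with 1 higher and 1 lower. Mlxipl, which encodes ChREBP, had 179, 157 and 170 CPM in the WT and 219.5, 215.8 and 219.7 CPM in the M92KO libraries. Every M92KO value was higher, with a log2 fold change of 0.37 ± 0.070 (edgeR adjusted p = 0.173). Mlxip, which encodes MondoA, was lower with no overlap (136 ± 2.66 CPM in the WT and 117 ± 10.1 in the M92KO mice, log2 fold change -0.23 ± 0.076, edgeR adjusted p = 0.307). Mlx (0.15 ± 0.097) and the glucose-induced arrestins Txnip (0.18 ± 0.18) and Arrdc4 (-0.20 ± 0.11), which lower surface glucose transporters, had log2 fold changes that did not pass the unadjusted threshold, with overlapping groups.

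Downstream of hexokinase, of 12 genes around glucose 6-phosphate, not all of whose products act on it, 0 were higher by the unadjusted threshold. The median log2 fold change was -0.07, and 3 genes were lower. They were Slc37a4, the glucose 6-phosphate carrier of the endoplasmic reticulum (-0.38 ± 0.14, overlapping groups), H6pd, the hexose 6-phosphate dehydrogenase of the same compartment (-0.19 ± 0.071, no overlap), and Pgm5, a phosphoglucomutase-like protein of cell junctions (-0.30 ± 0.11, no overlap). Their edgeR adjusted p-values lay between 0.325 for Slc37a4 and 0.360 for Pgm5. The mitochondrial channels to which hexokinases 1 and 2 bind, Vdac1 (-0.13 ± 0.087), Vdac2 (0.05 ± 0.063) and Vdac3 (0.06 ± 0.067), had log2 fold changes close to 0, and 0 of 3 passed the unadjusted threshold.

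**Figure D5:**
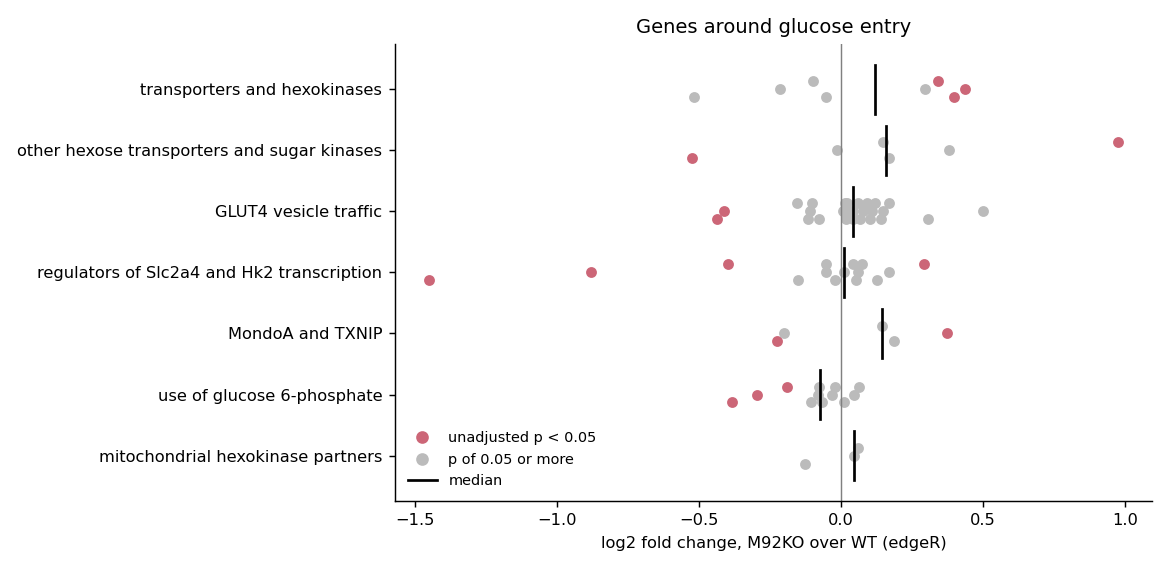
The log2 fold change of M92KO over WT of every tested gene in 7 lists around glucose entry (one point for each gene, red where the unadjusted edgeR p-value was under 0.05, spread vertically only to keep points apart), with the median of each list as a black line. The medians lie between -0.07 and 0.16.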

How the data were processed

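RNA was sequenced from whole Gas muscle of 3 WT and 3 M92KO mice aged 8 weeks, with libraries made by a SMARTer mRNA kit. The authors deposited raw counts of reads for each gene symbol, without normalization. The labels name GRCm38 and mm10 as builds, and the aligner, the counting program and the strandedness are not given in the sources used here. From counts the study went on with normalizeBetweenArrays, log2 of the value plus 1 and limma.

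Library totals were between 38246649 and 48209846 counts in the WT and between 33160508 and 37019640 counts in the M92KO mice, so 3 counts came to between 0.0628 and 0.0916 CPM. The filter on low counts was filterByExpr, with a minimum count of 10 and a minimum total of 15. Libraries were scaled with TMM (factors 0.981 to 1.03), and edgeR 4.0.16 in R 4.3.3 fitted glmQLFit and glmQLFTest with genotype as the only term and Benjamini-Hochberg adjustment over all genes tested. The fit was checked on simulated counts. CPM use TMM library sizes. Exact two-sided permutation tests used log2(CPM + 1). Lengths, positions and 3′-UTR sequences came from GENCODE M21, in which 25731 symbols matched by name and 421 by synonym. The miRNA and promoter sequences came from RefSeq.

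Alternatives were DESeq2 size factors in edgeR, DESeq2 1.42.0 (Wald test), limma 3.58.1 (voom), other filters, the study's steps, the replicate number as a block, offsets for trends with GC content and length (lowess span 0.3), and each library left out in turn. All 9 members were named, and from each other list the 3 tested genes with the smallest p-value (all of a list of at most 5), and for Slc2a4, Hk2 and Slc2a1 the 5 genes with the most similar profile. A few genes that the rule selects are left out of the text. The members and the lists were chosen with earlier results of these data known. Further lists held cell type markers. Each library was taken as 1 mouse. p-values measure the spread between these samples only.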

Additional observations from a re-analysis of the deposited data

How the results depend on the processing

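Slc2a4 and Slc2a1 kept their direction and an unadjusted p-value under 0.05 in all 14 alternatives, with log2 fold changes of 0.27 to 0.37 and 0.35 to 0.44. The adjusted p-value of Slc2a4 ran from 0.00137 (DESeq2's Wald test) to 0.578 and was also under 0.05 without M92KO replicate 1 (edgeR adjusted p = 0.0324), and that of Slc2a1 ran from 0.0661 to 0.590. Hk2 kept its direction in 14 and the unadjusted call in 9. It lost the call with the study's steps (0.36) and without WT replicate 2 or 3 or M92KO replicate 2 or 3, and leaving out each library gave 0.33 to 0.62. Slc2a8 ranged from -0.22 to 0.02 and changed sign without M92KO replicate 3 (0.016). The cause was not tested. Between 2 and 4 members were higher at an unadjusted p-value under 0.05, and 0 were lower in each of these alternatives. Over all genes, the count with an adjusted p-value under 0.05 was 0 in edgeR, 312 with DESeq2's Wald test, 6 without a filter, 42 with the study's steps, and 0 to 401 when each library was left out (401 without M92KO replicate 1, 5 without WT replicate 1, 1 without M92KO replicate 2). The unadjusted count of 1955 ranged from 1222 (without WT replicate 2) to 2984 (without M92KO replicate 1), and was 1272 without WT replicate 3. With the study's steps 54.4% of the unadjusted calls were higher in the M92KO mice, against 44.1%. With the replicate block, 1691 genes had an unadjusted and 2 an adjusted p-value under 0.05, and no member changed its call. Same-numbered libraries had correlations of 0.0633, 0.0477 and 0.0114 between their deviations, M92KO library 3 correlated best with WT library 2 (0.0347), and the numbers were not taken as pairs. Depth limits Hk3 and Hkdc1 most.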
